A study of Homo sapiens with 6 samples.

Results

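The 10 genes examined here encode the NF-kappaB transcription factor family and proteins that regulate it. They comprise the subunit genes NFKB1, NFKB2, REL, RELA and RELB, the IkappaB family genes NFKBIA, NFKBIE and BCL3, and the ubiquitin pathway genes TNFAIP3 and BIRC3. They were chosen by name, and all 10 were found among the 37887 listed symbols and among the 18851 genes that had enough counts to be tested. RNA-seq had been performed on BT-549 cells, an established human triple-negative breast cancer (TNBC) line, to determine how silencing of the interferon regulatory factor IRF1 changes gene expression. There were 3 control samples, which were given 0.1% DMSO, and 3 IRF1shRNA samples, which were given 500 ng/ml doxycycline. By their titles the DMSO samples carry a control shRNA, but the series text describes 1 line with an inducible IRF1 hairpin in both groups. The hairpin and doxycycline therefore cannot be told apart, and the series text names 1 vector. If the titles are right, the groups also differ in the transduced line, which cannot be told apart from the other differences. The study's qRT-PCR of IRF1 silencing compared BT-549 cells with a control shRNA, cells with an IRF1 shRNA and cells with another IRF1 shRNA. The study's methods describe puromycin selection of transduced cells, and whether the cells were a clone or a pool was not given in the sources used here. The samples of 1 group are triplicate cultures of 1 cell line per the labels, so p-values measure the spread between these cultures, which may be partly technical.

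NF-kappaB proteins share a Rel homology domain with which they form dimers and bind DNA. In unstimulated cells the IkappaB proteins hold most dimers in the cytoplasm, and the IkappaB kinase (IKK) complex releases them by marking the inhibitor for destruction. A canonical arm acts mainly through RELA and NFKB1, a noncanonical arm through RELB and NFKB2, and several inhibitors are themselves induced by NF-kappaB, which closes a negative feedback loop. IRF1 and NF-kappaB are known to act together at the promoters of many inflammatory genes, and IRF1 is itself a known NF-kappaB target.

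On GRCh38, as annotated by GENCODE release 29, NFKB1 lies on chromosome 4 at 102501329 to 102617302, NFKB2 on chromosome 10 at 102394110 to 102402529 and REL on chromosome 2 at 60881521 to 60931610. RELA lies on chromosome 11 at 65653596 to 65663094 and RELB on chromosome 19 at 45001430 to 45038198. The inhibitor genes NFKBIA (chromosome 14, 35401511 to 35404749) and NFKBIE (chromosome 6, 44258166 to 44265788) are on the minus strand, as is RELA. BCL3 lies on chromosome 19 at 44747705 to 44760044, TNFAIP3 on chromosome 6 at 137867188 to 137883312 and BIRC3 on chromosome 11 at 102317450 to 102339403.

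RefSeq promoter windows (GRCh38.p14, 250 bases before to 50 bases after an annotated start) were matched for 8 of the 10 genes, with 12 windows in all. RELB and NFKBIE had no match. Both strands of each window were searched for the kappaB consensus, for the core of the interferon-stimulated response element bound by IRF proteins (GAAANNGAAA) and for the STAT-bound GAS element (TTCNNNGAA). The kappaB consensus was found in 8 of the 12 windows, belonging to 7 of the 8 genes, whereas 11.3% of 35116 RefSeq promoter windows held it. RELA was the gene without one. The IRF element was found in 1 window and the GAS element in 1 window, beside 3.57% and 7.66% of all windows, and both were in the window of the distal RELA start. A match describes letters in a window and does not show that a factor binds there. Windows are shown for the 3 genes that fell after IRF1 silencing and for REL and NFKB1, the pair that rose most, each from 250 bases before to 20 bases after the start, 5′ to 3′ on the strand of the gene. Capitals mark kappaB matches, except in RELA, where they mark the IRF element and then the GAS element. For RELA and NFKB1 the window with a match was picked, and the other window of each gene held none of the motifs.
BCL3 (chr19:44748458-44748727, plus strand): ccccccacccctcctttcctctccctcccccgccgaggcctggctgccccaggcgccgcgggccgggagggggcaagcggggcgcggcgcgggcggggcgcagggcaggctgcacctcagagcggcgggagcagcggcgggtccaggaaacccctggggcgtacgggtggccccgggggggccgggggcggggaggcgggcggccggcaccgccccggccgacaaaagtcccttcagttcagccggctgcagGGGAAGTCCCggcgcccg
TNFAIP3 (chr6:137867009-137867278, plus strand): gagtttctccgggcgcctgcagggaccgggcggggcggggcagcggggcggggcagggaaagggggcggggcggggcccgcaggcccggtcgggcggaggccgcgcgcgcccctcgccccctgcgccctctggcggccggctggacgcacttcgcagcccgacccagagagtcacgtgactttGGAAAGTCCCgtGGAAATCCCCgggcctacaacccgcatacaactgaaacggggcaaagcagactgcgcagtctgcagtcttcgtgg
RELA, distal start (chr11:65663838-65664107, minus strand): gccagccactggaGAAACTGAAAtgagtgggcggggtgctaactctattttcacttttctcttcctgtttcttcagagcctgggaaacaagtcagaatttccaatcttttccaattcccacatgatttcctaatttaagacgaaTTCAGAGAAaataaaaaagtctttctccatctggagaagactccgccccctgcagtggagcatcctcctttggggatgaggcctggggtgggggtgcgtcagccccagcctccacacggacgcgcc
REL (chr2:60881324-60881593, plus strand): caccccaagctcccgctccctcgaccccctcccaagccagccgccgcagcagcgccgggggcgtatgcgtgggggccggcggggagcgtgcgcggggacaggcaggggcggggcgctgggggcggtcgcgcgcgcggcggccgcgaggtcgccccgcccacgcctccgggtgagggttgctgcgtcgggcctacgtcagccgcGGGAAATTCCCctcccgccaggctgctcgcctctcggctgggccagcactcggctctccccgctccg
NFKB1, first start (chr4:102501109-102501378, plus strand): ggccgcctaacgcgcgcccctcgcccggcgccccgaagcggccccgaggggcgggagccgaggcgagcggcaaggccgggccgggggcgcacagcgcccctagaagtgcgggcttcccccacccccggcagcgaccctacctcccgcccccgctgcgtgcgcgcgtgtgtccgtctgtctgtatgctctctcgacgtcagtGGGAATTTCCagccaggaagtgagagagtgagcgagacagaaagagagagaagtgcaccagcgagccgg

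The kappaB matches lay close to the start in several of these windows. Counted from the annotated start, the match of NFKB1 lay at −49 to −40, those of REL overlapped between −47 and −37, and that of BCL3 lay just after the start at 3 to 12. TNFAIP3 held 2 matches, at −67 to −58 and at −55 to −46, both on the strand opposite to the gene. BIRC3 also held 2, at −199 to −190 and at −135 to −126. In RELA the IRF element lay at −237 to −228 and the GAS element, which matches on both strands, at −106 to −98. The distal RELA start lies outside the GENCODE 29 model of the gene.

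**Figure D1:**
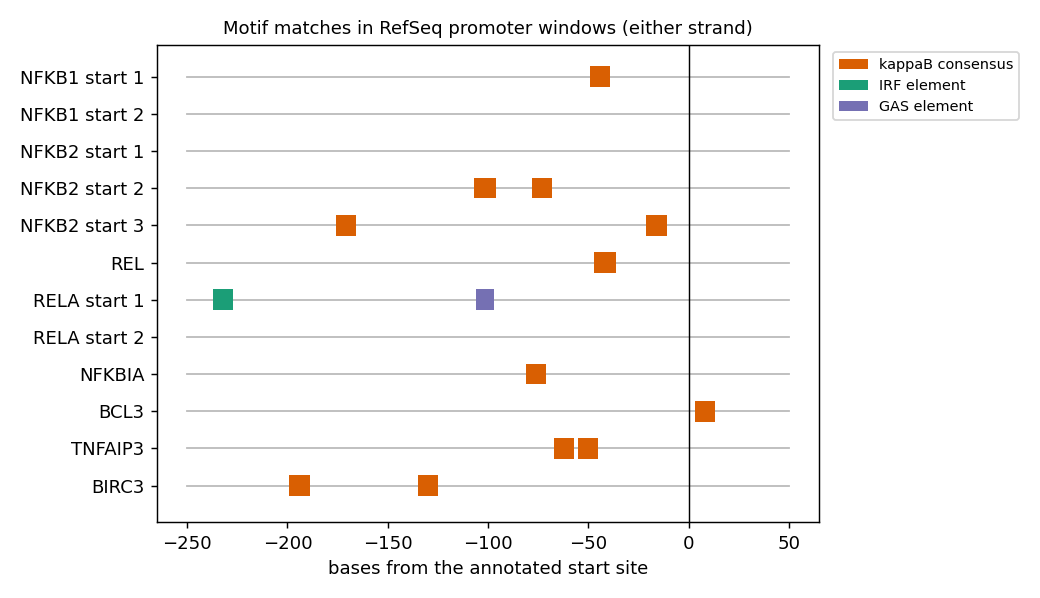
Positions of motif matches in the 12 RefSeq promoter windows of 8 NF-kappaB genes, with distance from the annotated start site in bases on the x axis and 1 window per line (grey). Orange boxes mark kappaB matches, green the IRF element and purple the GAS element, either strand; kappaB matches appear in 8 windows, and neither RELA window holds one.

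The samples were checked before the genes were compared. Libraries held from 55143808 to 160436234 counts, with IRF1shRNA replicate 2 the lowest. IRF1 fell to 29.9% of control, from 48.3 ± 3.14 to 14.4 ± 0.601 CPM (counts relative to library size, scaled between libraries by the TMM method; SD, n = 3 each). The control libraries held 45.3, 48.1 and 51.5 CPM of IRF1 and the IRF1shRNA libraries 13.8, 14.9 and 14.6 CPM, a log2 fold change of −1.74 ± 0.062 (SE; edgeR adjusted p 4.53e-13). The mesenchymal markers of BT-549 (VIM, CDH2, ZEB1, FN1 and SPARC) were all expressed, with a summed level of 3159 to 3247 CPM in control and 2824 to 3044 CPM in IRF1shRNA samples. VIM, FN1 and ZEB1 fell, SPARC rose and CDH2 was not called, and their part in the results below was not tested. The markers EPCAM, CDH1, ESR1 and PGR summed to 0.81 to 1.22 CPM over the 6 samples, and none of the 4 was at 0 in every library. The leukocyte marker PTPRC lay between 0.298 and 0.757 CPM and the endothelial marker PECAM1 between 0.0134 and 0.144 CPM, and CD3E, a T cell marker, was at 0 in every control. In a bulk sample, fewer expressing cells and less RNA per cell cannot be told apart.

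After IRF1 silencing the NF-kappaB genes moved in both directions and by less than 2-fold. BCL3, TNFAIP3 and RELA fell and REL, NFKB1 and NFKB2 rose, at a threshold of 0.05 on the p-value adjusted over all genes tested (quasi-likelihood test of edgeR). RELB, NFKBIA, NFKBIE and BIRC3 did not pass that threshold. Thus 3 of 10 genes were lower and 3 higher, beside 26.4% of all genes tested that were lower and 24.1% that were higher. For 6 of the 10 genes, the same 6 that passed the test, no control value lay within the range of the IRF1shRNA values, nor the reverse, beside 56.8% of all genes tested. Both shares are near those of the whole transcriptome. The median log2 fold change of the 10 genes was −0.071, against −0.0024 for all genes tested.

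**Figure D2:**
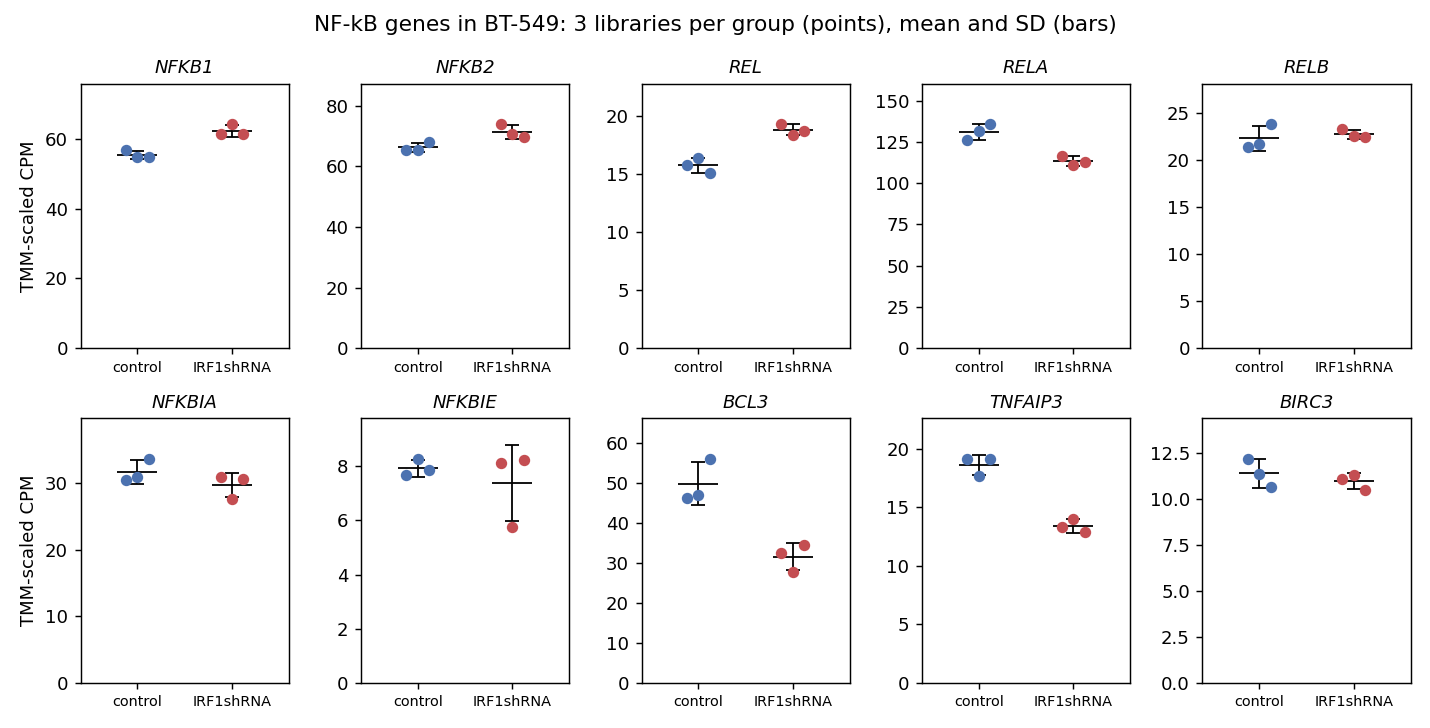
Expression of the 10 NF-kappaB genes in TMM-scaled CPM (y axis, from 0, with a scale of its own in each panel) in 3 control and 3 IRF1shRNA libraries (points), with mean and SD (bars). RELA, BCL3 and TNFAIP3 lie lower in all 3 IRF1shRNA libraries, and NFKB1, NFKB2 and REL higher.

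BCL3, an atypical IkappaB protein that binds p50 and p52 dimers in the nucleus and can act as a coactivator, showed the largest change of the 10 genes. The control libraries, in replicate order, held 46.3, 47.2 and 56.1 CPM of BCL3, and the IRF1shRNA libraries 32.4, 27.8 and 34.4 CPM. Every IRF1shRNA sample was below every control sample. The mean fell from 49.9 ± 5.44 to 31.6 ± 3.37 CPM (SD, n = 3 each), which is 63.3% of control, with a log2 fold change of −0.65 ± 0.077 (SE; edgeR adjusted p 1.52e-06). The spread among its control samples came mostly from control replicate 3. Across the alternatives the BCL3 log2 fold change stayed between −0.72 and −0.56.

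TNFAIP3 encodes a ubiquitin-editing enzyme that is induced by NF-kappaB and shuts off signalling to IKK. TNFAIP3 was at 19.1, 17.7 and 19.2 CPM in the control samples and at 13.3, 14.0 and 12.9 CPM in the IRF1shRNA samples, with no overlap between the groups. It fell to 71.8% of control, with a log2 fold change of −0.48 ± 0.067 (SE; edgeR adjusted p 1.01e-05). A noncoding gene on the opposite strand shares 1.88% of the TNFAIP3 exon bases in GENCODE, and whether strand was used in counting was not given in the sources used here.

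BIRC3, a ubiquitin ligase that is also an NF-kappaB target, was not called. BIRC3 was at 12.2, 11.4 and 10.6 CPM in the control samples and at 11.1, 11.3 and 10.5 CPM in the IRF1shRNA samples, and the groups overlapped. Its log2 fold change was −0.058, with a 95% interval from −0.21 to 0.098. It moved to −0.0091 without control replicate 1, to −0.026 without IRF1shRNA replicate 3 and to −0.10 without control replicate 3. The interval of BIRC3 therefore does not reach the estimate of TNFAIP3, although no test compared the pair.

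NFKBIA and NFKBIE encode IkappaB proteins that retain NF-kappaB dimers in the cytoplasm, and neither gene was called. NFKBIA, the main inhibitor of RELA dimers and a feedback target, was at 30.4, 30.8 and 33.6 CPM in control and at 30.8, 27.5 and 30.6 CPM after silencing, with overlap. The NFKBIA log2 fold change was −0.09 (95% interval −0.22 to 0.04; edgeR adjusted p 0.246), and it moved to −0.038 without IRF1shRNA replicate 2 and to −0.040 without control replicate 3. NFKBIE, which encodes IkappaB-epsilon, was the least expressed of the 10 genes in CPM, with 7.66, 8.28 and 7.85 CPM in control and 8.13, 5.77 and 8.23 CPM in IRF1shRNA samples. IRF1shRNA replicate 2, the shallowest library, stood apart from the other five. The NFKBIE log2 fold change was −0.084 (95% interval −0.31 to 0.14), and it changed sign to 0.05 when IRF1shRNA replicate 2 was left out.

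Among the subunits, RELA fell and the other subunits rose or were not called. RELA encodes p65, the subunit that carries the transactivation domain of the canonical dimer. RELA was at 125.9, 131.6 and 135.8 CPM in the control samples and at 116.5, 110.8 and 112.7 CPM in the IRF1shRNA samples, which all lay below the controls. The mean fell from 131.1 ± 4.98 to 113.3 ± 2.92 CPM (SD, n = 3 each), which is 86.5% of control, with a log2 fold change of −0.21 ± 0.043 (SE) and an edgeR adjusted p of 0.00058. Its log2 fold change stayed between −0.24 and −0.16 across the alternatives.

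REL, which encodes c-Rel, a subunit best known in lymphoid cells, rose most. REL was at 15.8, 16.4 and 15.1 CPM in control and at 19.3, 18.4 and 18.8 CPM after silencing, with no overlap. Its log2 fold change was 0.26 ± 0.064 (SE), or 119.4% of control (edgeR adjusted p 0.0026). In GENCODE a noncoding gene on the same strand shares 43.3% of the REL exon bases, so the REL count depends on how reads in that stretch were assigned.

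NFKB1 and NFKB2 encode the precursors p105 and p100, which are processed to the DNA-binding subunits p50 and p52 and, unprocessed, act as inhibitors. NFKB1 was at 56.7, 54.7 and 54.8 CPM in control and at 61.2, 64.2 and 61.4 CPM in IRF1shRNA samples, and it rose by a log2 fold change of 0.17 ± 0.042 (SE; adjusted p 0.00287 by the edgeR test). NFKB2 was at 65.4, 65.4 and 68.0 CPM in control and at 74.0, 70.6 and 69.7 CPM in IRF1shRNA samples. The groups did not overlap for either gene, but the highest control and the lowest IRF1shRNA sample of NFKB2 were closer than the lowest and highest sample within either group. The NFKB2 log2 fold change was 0.11 ± 0.043 (SE; adjusted p 0.0429 by the edgeR test). The NFKB2 call was lost when control replicate 1 (0.097, adjusted p 0.119), control replicate 2 (0.10, adjusted p 0.16), IRF1shRNA replicate 1 (0.081, adjusted p 0.206) or IRF1shRNA replicate 3 (0.125, adjusted p 0.052) was left out of the edgeR fit.

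RELB, the partner of p52 in the noncanonical arm, was not called. RELB was at 21.3, 21.7 and 23.8 CPM in control and at 23.3, 22.6 and 22.4 CPM after silencing, and control replicate 3 was higher than every IRF1shRNA sample. Its log2 fold change was 0.029 (95% interval −0.10 to 0.16), and it turned to −0.0039 without control replicate 1.

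**Figure D3:**
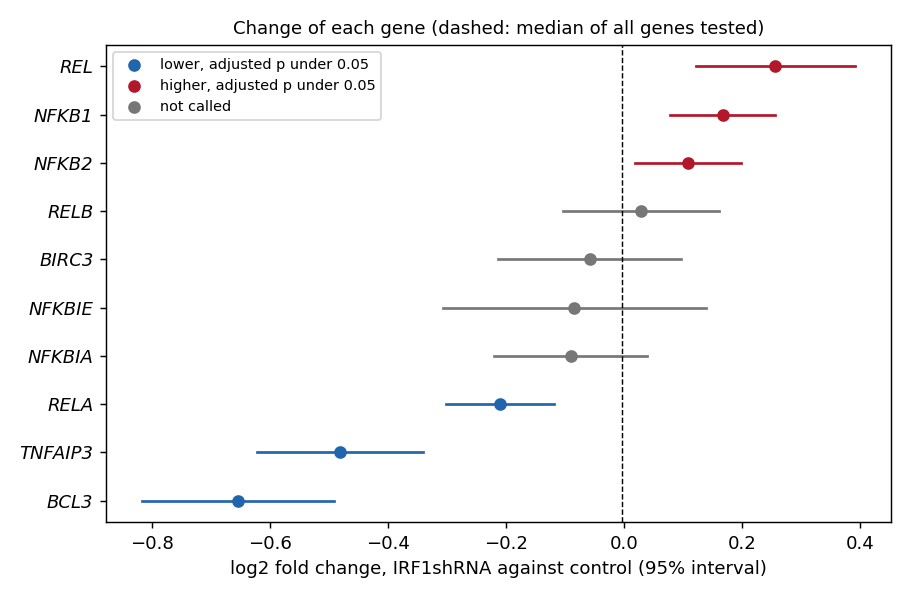
Log2 fold change of each NF-kappaB gene, IRF1shRNA against control, with its 95% interval (x axis), sorted by size, with the median of all genes tested as a dashed line. The estimates run from −0.65 for BCL3 to 0.26 for REL, and the intervals of RELB, BIRC3, NFKBIE and NFKBIA include 0.

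Levels of different genes were compared per kilobase of merged GENCODE exons. In control samples RELA was highest at 24.0 ± 0.911 CPM per kb, followed by BCL3 at 15.4 ± 1.68, NFKB2 at 14.8 ± 0.34, NFKBIA at 13.3 ± 0.74 and NFKB1 at 8.86 ± 0.176 CPM per kb (SD, n = 3). RELB at 7.35 ± 0.441, TNFAIP3 at 3.69 ± 0.171, NFKBIE at 3.07 ± 0.122, BIRC3 at 1.52 ± 0.104 and REL at 1.20 ± 0.0502 CPM per kb were lower. BCL3 and NFKB2, neighbours in this order, did not differ beyond their spread. In IRF1shRNA samples BCL3 stood at 9.73 ± 1.04 CPM per kb, which placed it at rank 5 in place of rank 2, where it did not differ beyond its spread from NFKB1 at 9.95 ± 0.27. With the length of the principal transcript in place of merged exons, BCL3 went from rank 2 to rank 4. TNFAIP3 and NFKBIE exchanged places but did not differ beyond their spread in IRF1shRNA samples, at 2.65 ± 0.115 and 2.86 ± 0.541 CPM per kb. BIRC3 at 1.46 ± 0.0574 and REL at 1.43 ± 0.0354 CPM per kb did not differ beyond their spread there either. The level and rank of REL also depend on how reads in its shared exon bases (43.3%) were assigned.

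The make-up of the subunit transcripts was then calculated within each library, which does not depend on the scaling between libraries. Per kilobase, RELA made up 41.9%, 43.1% and 43.0% of the subunit transcripts in the control libraries, in replicate order, and 37.6%, 36.8% and 37.6% in the IRF1shRNA libraries. Its share was lower in every IRF1shRNA sample, with a mean difference of −5.37 percentage points. The share of NFKB2 went from 26.3 ± 0.224% to 28.7 ± 0.363%, that of NFKB1 from 15.8 ± 0.671% to 17.9 ± 0.694% and that of REL from 2.13 ± 0.133% to 2.57 ± 0.0326% (SD, n = 3 each). RELB made up 13.1 ± 0.446% in control and 13.5 ± 0.0261% in IRF1shRNA samples, which overlapped. RELA remained the most abundant subunit transcript in all 6 libraries. The size of each share depended on the length used, and also on how reads in the shared exon bases of REL were assigned. With principal transcript length, RELA made up 51.3 ± 0.695% in control and 45.7 ± 0.513% in IRF1shRNA samples (SD, n = 3 each). The difference was then −5.61 percentage points. NFKB2 made up 22.6 ± 0.235% in control and 25.1 ± 0.317% in IRF1shRNA samples by that length.

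**Figure D4:**
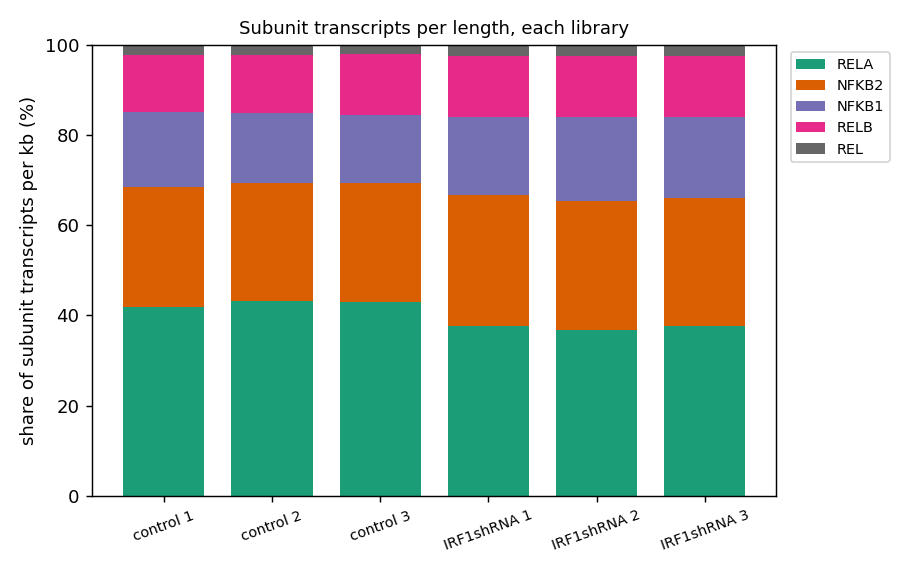
Share of each subunit among the NF-kappaB subunit transcripts per kilobase of merged exons (y axis, percent) in each of the 6 libraries (x axis). RELA takes 41.9% to 43.1% of the bar in control and 36.8% to 37.6% in IRF1shRNA libraries, and REL is the smallest part in each.

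Ratios of gene pairs within a library were computed from the counts without any scaling. The log2 ratio of REL to RELA counts was −2.99, −3.00 and −3.17 in the control samples and −2.59, −2.59 and −2.59 in the IRF1shRNA samples, a difference of 0.47. The log2 ratio of RELB to RELA was higher by 0.24 and that of NFKBIA to RELA by 0.12, with no overlap between the groups for either. RELA, the denominator here, was itself lower, whereas RELB and NFKBIA were not called, so these ratios do not show a rise of either gene. The share of other gene pairs without overlap was not computed. The log2 ratio of TNFAIP3 to NFKB1 was −1.57, −1.63 and −1.52 in control and −2.20, −2.20 and −2.25 in IRF1shRNA samples, a difference of −0.65. Each of these 4 ratios had a two-sided p of 0.1 in an exact permutation test, the smallest that 3 samples against 3 allow, and an adjusted p of 0.125 over the 5 ratios computed. The log2 ratio of NFKB2 to NFKB1 overlapped between the groups, at 0.26 ± 0.052 in control and 0.20 ± 0.07 in IRF1shRNA samples (SD, n = 3 each; exact permutation p 0.3, adjusted p 0.3).

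The remaining genes of the pathway were taken from 7 lists arranged by role. Of 102 genes listed, 92 were tested, of which 31 were lower and 22 higher with an adjusted p under 0.05, beside the 26.4% lower and 24.1% higher among all genes tested, which also stand beside each list count below. The share higher was thus near that of all genes. The share lower was larger than that of all genes, but the lists were chosen with earlier results known and the difference was not tested. Their median log2 fold change was −0.12, against −0.071 for the 10 NF-kappaB genes and −0.0024 for all genes tested. In 6 of the 7 lists the lowest log2 fold change was below that of BCL3, down to −3.35 among target genes. That lowest value belongs to CX3CL1, a scarce transcript with 2 to 38 counts per library and a mean of 0.105 CPM. The genes named first below are those with the smallest adjusted p in each list, and the others that complete a count were named after their values were seen.

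Among the other IkappaB genes, NFKBIB and the nuclear NFKBIZ were lower, by log2 fold changes of −0.20 and −0.13, and NFKBID was not called. Neither gene was called without control replicate 3 (−0.16 and −0.12) or IRF1shRNA replicate 2 (−0.14 and −0.11), or with upper quartile scaling (−0.16 and −0.09) or scaling by library size alone (−0.15 and −0.083). Both calls were also lost at a threshold of 0.01. NFKBIZ also lost its call without control replicate 1 or IRF1shRNA replicate 1 (both −0.11), with DESeq2 (adjusted p 0.0523), with DESeq2 size factors in edgeR (adjusted p 0.0512) and with the filter at 1 CPM (adjusted p 0.0741). Of 13 kinases at and above IKK, 3 were lower and 3 higher. The number higher was 1 without control replicate 2 or IRF1shRNA replicate 3, without a filter on low counts and at a threshold of 0.01. It was 5 under 3 other settings of scaling or filter, and the number lower was 5 without IRF1shRNA replicate 2. The smallest adjusted p-values belonged to MAP3K8 (log2 fold change −1.18), a kinase held by p105, to the IKK-related kinase IKBKE (−0.62) and to IKBKG (−0.36), the regulatory subunit of IKK. IKBKG has a near-identical pseudogene, and how reads that match both were counted was not given in the sources used here. The 3 that rose were MAP3K7 (0.15), which phosphorylates IKK, its partner TAB3 (0.13) and MAP3K14 (0.12), the kinase of the noncanonical arm. TAB3 lost its call without control replicate 2 or 3 or IRF1shRNA replicate 1 or 3, and MAP3K14 without control replicate 1 or 2 or IRF1shRNA replicate 3. Both calls were also lost without a filter on low counts and at a threshold of 0.01.

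Adaptors and ubiquitin ligases that carry receptor signals to IKK held 6 lower and 4 higher genes of 17. MYD88, the adaptor of Toll-like and interleukin-1 receptors, fell to 44.2% of control (log2 fold change −1.18), and RBCK1, a subunit of the linear ubiquitin ligase, to 57.9% (−0.79). TRAF1, an adaptor of tumor necrosis factor (TNF) receptors and an NF-kappaB target, rose from 13.0 ± 0.535 to 21.8 ± 0.284 CPM (SD, n = 3 each; log2 fold change 0.75). The others that rose were TRAF2 (0.22), TRAF3 (0.18) and BIRC2 (0.16). TRAF5 (−0.996), TRADD (−0.72), IRAK1 (−0.29) and BCL10 (−0.20) also fell. Of 16 negative regulators other than TNFAIP3, 4 were lower and 7 higher. TNIP1, which partners the TNFAIP3 protein, fell with a log2 fold change of −0.46 and NKRF, a repressor, with one of −0.41. SIGIRR, an inhibitory relative of the interleukin-1 receptor, fell to 49.5% of control. N4BP1 was the fourth to fall (log2 fold change −0.29). The 7 that rose were IRAK3 (0.999, at a mean of 0.697 CPM), TNIP2 (0.27), COMMD1 (0.22), ITCH (0.20), CYLD (0.19), TAX1BP1 (0.17) and OTUD7B (0.12). The number higher ranged from 5 to 9 across the alternatives. For the 16 genes tested the median was 0.10, above 0.

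Of 10 receptors tested, 4 were lower and 1 higher. TLR3, a sensor of double-stranded RNA, fell from 3.83 ± 0.588 to 0.537 ± 0.132 CPM (SD, n = 3 each), which is 14.0% of control, and TNFRSF1B, a TNF receptor, fell with a log2 fold change of −1.82. LTBR, the lymphotoxin receptor (−0.51), and TNFRSF11A, the receptor RANK (−0.34), also fell. The TNFRSF11A call was lost without control replicate 2 or 3 or IRF1shRNA replicate 1 or 3, with DESeq2, and with upper quartile or library size scaling. A threshold of 0.01 removed it as well. IL1RAP, the accessory chain of the interleukin-1 receptor, rose to 173% of control with a log2 fold change of 0.79. Of 10 ligands, 5 had too few counts to be tested, among them TNF at 2 counts or fewer in every sample and LTB at 0. A count of 0 allows up to 0.0182 to 0.0541 CPM depending on the library, taking 3 counts as the limit, which covers counting error only. This limit would be higher if the mates of a read pair were counted separately. TNFSF12, which signals through the noncanonical arm, fell to 26.5% of control (log2 fold change −1.93). TNFSF13B, the ligand BAFF, rose with a log2 fold change of 1.15 at a mean of 0.4 CPM, and it was not tested when at least 1 CPM in 3 samples was required.

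Of 28 target genes tested, 11 were lower and 6 higher. PLAU, the urokinase, fell from 204.1 ± 5.99 to 82.7 ± 2.36 CPM (SD, n = 3 each; log2 fold change −1.30), SOD2, the mitochondrial superoxide dismutase, from 655 ± 24.0 to 367 ± 4.33 CPM (−0.84) and the chemokine CCL5 from 13.6 ± 2.34 to 1.86 ± 0.373 CPM (−2.82). Several genes of this list, CCL5 among them, are also known interferon response genes. The largest adjusted p among the genes named by the rule for these lists was 0.0404, for NFKBIZ, by edgeR's quasi-likelihood test.

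**Figure D5:**
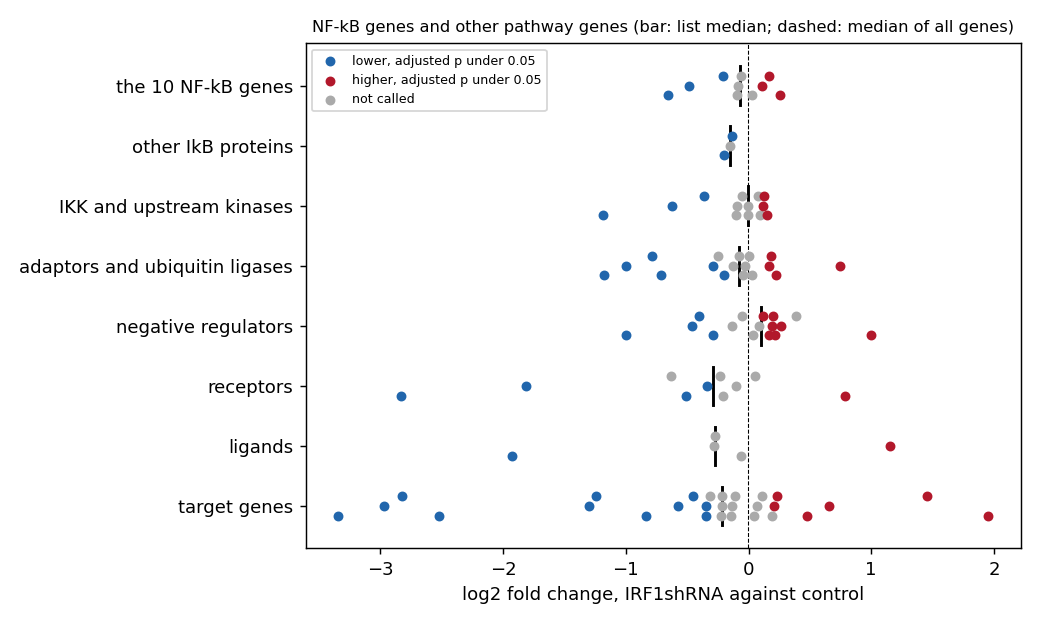
Log2 fold change, IRF1shRNA against control (x axis), of the 10 NF-kappaB genes and of 92 other pathway genes tested, 1 point per gene, in lists by role, with the list median as a black bar, the median of all genes as a dashed line, and blue and red for genes lower and higher at an adjusted p under 0.05. The 10 genes lie between −0.65 and 0.26, whereas receptors reach −2.84 and target genes −3.35 and 1.95. The −3.35 is CX3CL1, at 2 to 38 counts per library.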

How the data were processed

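RNA-seq libraries of BT-549 cells (3 control, 3 IRF1shRNA) were prepared with the TruSeq Stranded mRNA kit. Per the submitters' processing notes the authors used CASAVA 1.8.2, STAR 2.7.9a, featureCounts and DESeq2 1.24.0 with GRCh38.p7, and they deposited raw counts per gene symbol. The annotation release and the strand setting were not given in the sources used here. Between 72.1% and 75.2% of counts from 2 to 11 were even, so mates of a read pair may have been counted separately, and halved counts were tried as an alternative. Counts were analysed with edgeR 4.0.16 in R 4.3.3: genes were filtered with filterByExpr (minimum count 10), scaled by TMM and tested with the quasi-likelihood F test on the groups, with Benjamini-Hochberg adjustment over 18851 genes and a threshold of 0.05. The SE is the log2 fold change divided by the square root of F. The fit was tested on simulated counts for this comparison with 18565 genes. There, 66.3% of 98 genes changed by a log2 of 0.5 and 77.3% of 97 changed by a log2 of 1 were recovered. Of the calls, 10.8% were false. Only 200 genes were picked for change, whereas 4971 were called lower and 4548 higher in the data, so these shares may not carry over. Changes below 0.5, such as those of RELA, REL, NFKB1 and NFKB2, were not simulated.

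Gene lengths came from GENCODE 29 and promoter windows from RefSeq. The 10 genes, the pathway lists and the motifs were chosen with earlier results of these data known. In each list the text names the 3 genes with the smallest adjusted p under 0.05 and a mean of at least 1 CPM. Other genes named were chosen after their values were seen. Alternatives were DESeq2 1.42.0, its size factors, upper quartile and library size scaling, 2 other filters, a threshold of 0.01, a replicate block, halved counts and leaving out each replicate, and, chosen after seeing the data, the principal transcript length and leaving out each replicate for the RELA share. Total counts per sample ran from 55143808 to 160436234, and 3 counts correspond to 0.0182 to 0.0541 CPM. One marker of another cell type, and the summed level of its list, are not reported here.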

Additional observations from a re-analysis of the deposited data

How the results depend on the processing

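BCL3, TNFAIP3 and RELA remained lower, and NFKB1 and REL higher, with an adjusted p under 0.05 in every alternative run, with adjusted p-values up to 0.025 when 1 replicate was left out. NFKB2 kept its direction but lost its call without a filter on low counts (log2 fold change 0.11, adjusted p 0.0882), at a threshold of 0.01 (0.11, adjusted p 0.0429) and with the replicate number as a block (0.11, adjusted p 0.0544), and ranged from 0.081 to 0.13 when 1 replicate was left out. RELB ranged from −0.0039 to 0.083 and NFKBIE from −0.17 to 0.050 when 1 replicate was left out, so both crossed 0. The cause was not tested. The replicate numbers did not pair the samples, with correlations of deviations of 0.0149, 0.0215 and −0.0122. Among pathway lists 191 counts stayed within 1.5 times and 19 did not, all of them for other IkappaB genes (0 or 1 lower), kinases (1 or 5 higher, 5 lower) and ligands (0 higher). No scaling moved the median of all genes by over 0.1. The shallowest library, IRF1shRNA replicate 2, limits NFKBIE most, at 320 counts.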

Other observations

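The genes in this paragraph and the next were chosen after their values were seen, and their adjusted p-values come from the same edgeR fit. MAP3K14, the kinase that drives NFKB2 processing, had a log2 fold change of 0.12 ± 0.043 (SE; adjusted p 0.0307), and its call was lost without control replicate 1, control replicate 2 or IRF1shRNA replicate 3, without a filter on low counts and at a threshold of 0.01. TRAF2, TRAF3 and BIRC2, which together keep MAP3K14 unstable, rose with log2 fold changes of 0.22, 0.18 and 0.16. LTBR, the lymphotoxin receptor, fell from 91.3 to 64.2 CPM (log2 fold change −0.51, adjusted p 2.01e-07), while its ligand genes LTB and LTA had at most 4 counts in a sample. TNFRSF12A, the receptor for the TNFSF12 product, did not pass the threshold (−0.21, adjusted p 0.0513). TNFRSF12A passed it with the replicate block (−0.23, adjusted p 0.0172), without a filter on low counts (−0.21, adjusted p 2.4e-05), without control replicate 1 (−0.25, adjusted p 0.0435) and without IRF1shRNA replicate 1 (−0.33, adjusted p 0.00391), and its log2 fold change was −0.076 without IRF1shRNA replicate 2.

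CXCL1 fell from 158.8 to 106.8 CPM (log2 fold change −0.57) and CXCL8 with a log2 fold change of −0.46, whereas CXCL5 rose from 72.7 to 114.6 CPM (0.66, adjusted p 1.35e-07). IL6, an inflammatory cytokine, fell to 42.4% of control with a log2 fold change of −1.24. MMP9, a matrix protease, rose from 0.742 to 2.85 CPM (1.95, adjusted p 2.08e-08). The main receptors for interleukin-1 and TNF were not called, with a log2 fold change of −0.10 for IL1R1 (adjusted p 0.108) and 0.05 for TNFRSF1A (adjusted p 0.404).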
